A study of Mus musculus with 8 samples.

Results

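The genes described here are 10 genes typical of endothelium, Pecam1, Cdh5, Cldn5, Kdr, Flt1, Tek, Tie1, Ednrb, Calcrl and Lyve1, out of 22180 genes measured on arrays of sorted mouse lung mesenchyme. They were listed by name, and each had 1 probe set that the array annotation assigns to that gene alone, so all 10 were measured. The samples came from C57BL/6J mice aged 11 weeks and free of specific pathogens, which had bleomycin or PBS instilled into the trachea. Bleomycin is a DNA-damaging drug used to injure the mouse lung, and PBS is a saline buffer. On day 10 the cells lacking CD45, CD31 and EpCAM at their surface were sorted from whole lungs, and 4 bleomycin and 4 control samples were each hybridised to 1 array. The labels do not state whether replicates were separate animals, so p-values reflect how far these samples vary, and that variation may be technical.

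Endothelial cells line blood and lymphatic vessels. Blood endothelium is held together by VE-cadherin and claudin junctions, and it grows and survives on signals from VEGF and angiopoietins. CD31, the product of Pecam1, is a surface protein of nearly all endothelium, and the sort was set to remove cells that carry it. The 10 genes are therefore typical of a cell type that the gate was set to remove. Some are also known from other cells, for example Pecam1 from leukocytes and platelets and Lyve1 from some macrophages. Whether the transcripts came from cells inside or outside the gate was not tested.

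All 10 genes were lower in the bleomycin samples, and all 10 were also uneven among the controls. Every bleomycin array lay below every control array for each gene, and the 10 genes fell 2.04-fold (Cdh5) to 3.22-fold (Tek), with a median log2 difference of -1.32. Among all genes tested the median difference was 0.03. Levels are the deposited array intensities, read as log2 from their range, and a gene passed where limma's p, adjusted over all genes, was under 0.05. Each fall passed (adjusted p between 0.00125 and 0.0292), where 8.24% of all genes were called lower and 9.12% higher. In 11% of all genes every bleomycin array lay below every control array. Falls of over 2-fold that passed the test made up 1.27% of all genes and included all 10. In the controls, replicates 1 and 2 were both above replicates 3 and 4 for 10 of 10 genes, with a median difference of 0.95, while this order held for 19.4% of all genes. The opposite order, found in 25.6% of all genes, held for none of the 10. The 10 genes and these pairs were chosen with earlier results of these data known, so these shares are not a test. In bulk RNA of this kind, fewer cells of a type and less RNA per cell cannot be told apart.

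Markers of the labelled cell type were bright in every sample. Pdgfra, the receptor that marks most lung fibroblasts, averaged 12.15 ± 0.09 on bleomycin and 12.58 ± 0.05 on control arrays (log2 intensity, mean ± SD, n = 4 each), where the array medians of all tested genes lay between 5.47 and 5.54. Col1a1, a chain of type I collagen, averaged 12.77 ± 0.13 on bleomycin and 11.94 ± 0.23 on control arrays. Brightness depends on the probe set, so levels are not ranked between genes here, and no detection calls were used to say where a signal ends and background starts. Probe sets assigned to no gene had array medians of 4.20 to 4.35 on bleomycin and 4.44 to 4.52 on control arrays. Dim genes such as Epcam lie near these levels, and the part of this shift in their differences was not tested. The transcripts of the other antigens of the gate lay just over the threshold. Ptprc, which encodes CD45, averaged 6.22 ± 0.04 on bleomycin and 6.69 ± 0.34 on control arrays (adjusted p = 0.0529), and Epcam averaged 4.43 ± 0.37 and 4.99 ± 0.23 on the same arrays (adjusted p = 0.0547). Their calls depended on the fit: as alternatives added after seeing the data, both were lower in every fit that held them, Ptprc passed in 9 of 21 and Epcam in 7 of 20, among them quantile normalization (adjusted p of 0.0454 and 0.0436), and without control replicates 1 and 2 they differed by -0.22 and -0.39 (adjusted p of 0.354 and 0.324).

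The gate antigen's own transcript fell. Pecam1 read 8.56, 8.60, 8.18 and 8.89 on bleomycin replicates 1 to 4, against 10.29, 10.36, 9.55 and 9.26 on control replicates 1 to 4. The lowest control array stood 0.38 above the highest bleomycin array, and control replicates 1 and 2 were the brightest of the 8. The log2 difference was -1.31 ± 0.25 (± SE, as in all differences with an error below; adjusted p = 0.00486).

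The junction genes fell as well. Cdh5 encodes VE-cadherin, the adhesion protein of endothelial adherens junctions, and read 9.85, 9.80, 9.13 and 9.87 on the bleomycin arrays, against 11.13, 11.31, 10.24 and 10.10 on the control arrays. Bleomycin replicate 3 stood apart below the other bleomycin arrays, and the groups were 0.23 apart at their nearest points. The difference of -1.03 ± 0.28 (adjusted p = 0.0292) was the smallest of the 10 and the least firm. It no longer passed without control replicate 1 or 2 or without bleomycin replicate 1, 2 or 3, where it lay between -0.83 and -1.09 (adjusted p between 0.0505 and 0.0802). Cldn5, the main claudin of endothelial tight junctions, read 6.75, 6.67, 6.79 and 7.23 on bleomycin arrays, against 8.51, 8.81, 7.77 and 7.68 on control arrays. These groups were 0.44 apart, and the difference was -1.33 ± 0.24 (adjusted p = 0.00431).

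**Figure D1:**
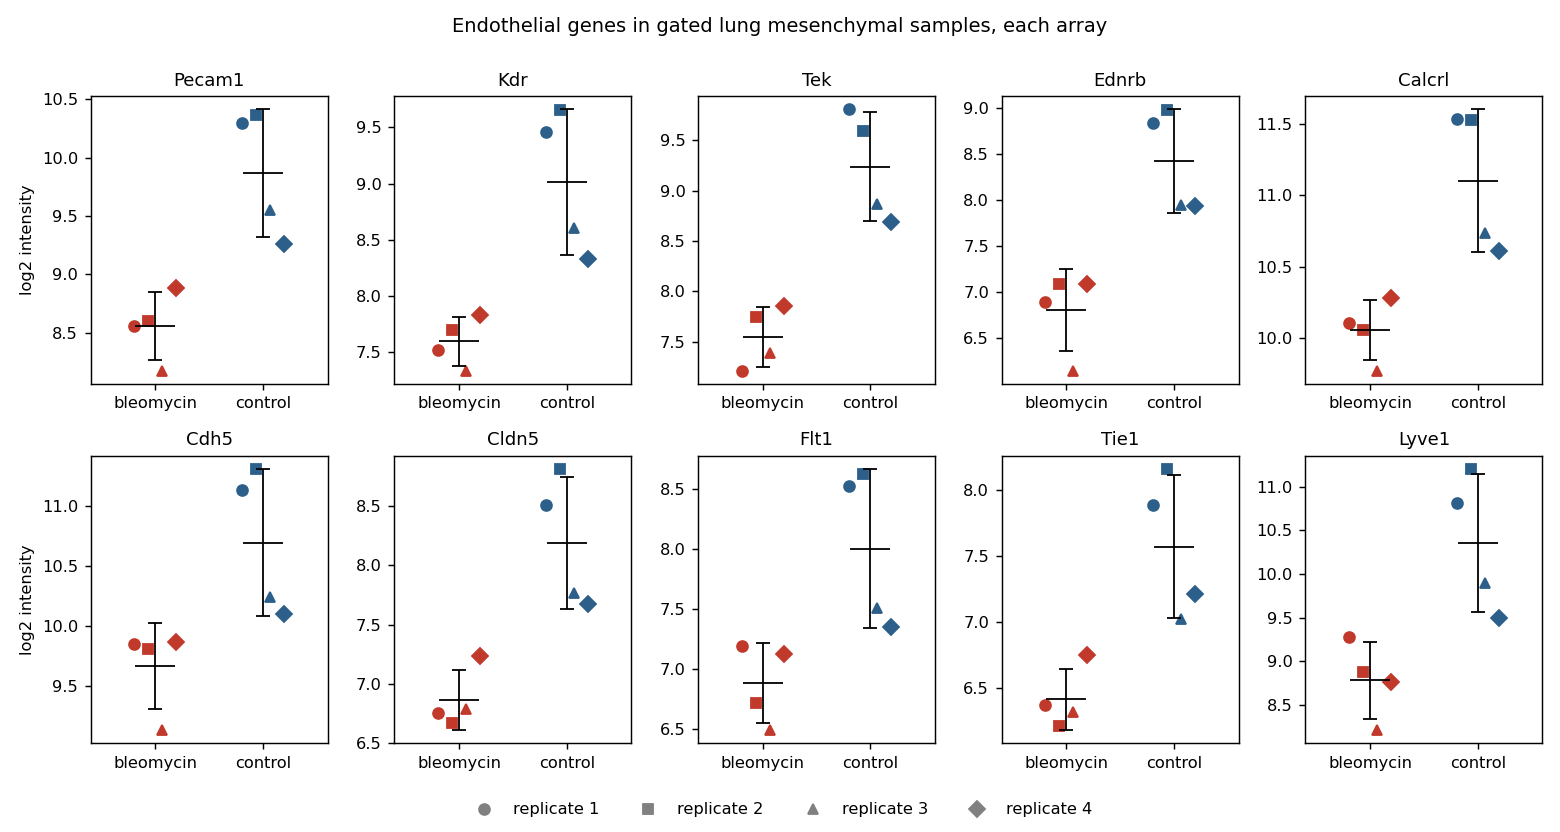
Log2 intensity of each of the 10 genes on every array, with bleomycin at the left and control at the right of each panel; the 4 marker shapes are replicates 1 to 4, and black bars are the mean and SD (n = 4). In each panel all bleomycin points lie below all control points, and control replicates 1 and 2 lie above control replicates 3 and 4.

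The receptors for VEGF and the angiopoietin receptor family are tyrosine kinases by which endothelium senses growth factors. Kdr, Flt1, Tek and Tie1 all fell, and their promoters are shown for that reason. Each is the window from 250 bases before to 50 bases after the gene's start, from RefSeq on GRCm38.p6, written 5′ to 3′ on the gene's strand. Capitals mark GGAA and its reverse complement TTCC, the core bound by ETS factors such as Erg and Fli1, which are known to drive many endothelial genes. The windows are chr5:75978406-75978705 on the minus strand for Kdr, chr5:147725962-147726261 on the minus strand for Flt1, chr4:94739039-94739338 on the plus strand for Tek and chr4:118489800-118490099 on the minus strand for Tie1.
Kdr: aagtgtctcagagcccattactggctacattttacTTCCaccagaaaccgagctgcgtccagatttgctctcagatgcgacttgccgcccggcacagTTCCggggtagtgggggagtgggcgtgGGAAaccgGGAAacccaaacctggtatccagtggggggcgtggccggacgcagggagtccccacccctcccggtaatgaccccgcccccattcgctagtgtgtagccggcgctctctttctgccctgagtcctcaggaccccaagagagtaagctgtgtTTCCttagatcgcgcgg
Flt1: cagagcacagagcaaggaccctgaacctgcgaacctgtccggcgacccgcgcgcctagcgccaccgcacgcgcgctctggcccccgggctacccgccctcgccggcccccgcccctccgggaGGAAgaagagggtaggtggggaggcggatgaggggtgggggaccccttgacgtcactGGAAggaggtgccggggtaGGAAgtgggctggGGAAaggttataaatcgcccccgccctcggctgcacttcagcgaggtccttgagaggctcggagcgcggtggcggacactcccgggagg
Tek: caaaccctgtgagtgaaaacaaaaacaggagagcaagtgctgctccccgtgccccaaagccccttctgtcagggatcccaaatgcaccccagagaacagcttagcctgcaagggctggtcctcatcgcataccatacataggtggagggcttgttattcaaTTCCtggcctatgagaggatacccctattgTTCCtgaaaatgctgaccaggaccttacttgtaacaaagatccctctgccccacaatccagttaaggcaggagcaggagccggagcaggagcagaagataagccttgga
Tie1: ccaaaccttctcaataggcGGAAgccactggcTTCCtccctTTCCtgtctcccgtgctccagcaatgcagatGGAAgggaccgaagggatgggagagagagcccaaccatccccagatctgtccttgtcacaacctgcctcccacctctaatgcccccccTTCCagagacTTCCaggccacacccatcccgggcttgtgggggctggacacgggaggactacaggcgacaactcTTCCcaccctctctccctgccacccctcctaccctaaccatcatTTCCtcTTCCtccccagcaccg
The core occurs 5 times in the Kdr window, 4 times in that of Flt1, 2 times in that of Tek and 9 times in that of Tie1, counting both strands. It is common, since 96% of 32851 such windows hold it at least once, with a median of 3 per window. As many as in Kdr, Flt1 and Tek occur in 28.6%, 46.3% and 84.6% of all windows, and as many as in Tie1 in 1.59%. Of the 7 genes with a window, Cldn5 held none, and Calcrl and Ednrb held 3 each. A match of letters is a description and not a binding site.

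Kdr encodes VEGFR2, the chief signalling receptor for VEGF-A. It read 7.52, 7.70, 7.33 and 7.83 on bleomycin arrays, against 9.46, 9.66, 8.60 and 8.33 on control arrays. All bleomycin arrays lay under 8, and the difference was -1.42 ± 0.27 (adjusted p = 0.00514). Flt1 encodes VEGFR1, which binds VEGF-A tightly and signals weakly. It read 7.19, 6.72, 6.49 and 7.12 on bleomycin arrays, against 8.53, 8.63, 7.51 and 7.36 on control arrays. The groups came within 0.16 of each other, the narrowest gap of the 10 genes, and the difference was -1.12 ± 0.29 (adjusted p = 0.0243). This call was lost without control replicate 1 or 2 or without bleomycin replicate 2 or 3, with differences between -0.92 and -1.07 (adjusted p between 0.0597 and 0.0697).

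Tek, or Tie2, is the receptor for the angiopoietins, and it differed most. It read 7.21, 7.74, 7.39 and 7.85 on bleomycin arrays, against 9.81, 9.59, 8.87 and 8.69 on control arrays. Here the groups were 0.83 apart, and the difference was -1.69 ± 0.25 (adjusted p = 0.00125), a 3.22-fold lower level. Tie1, a related receptor that modulates Tie2, read 6.37, 6.22, 6.32 and 6.75 on bleomycin arrays, against 7.89, 8.16, 7.03 and 7.21 on control arrays. Control replicate 3 was the lowest control here, whereas replicate 4 was in the 9 other genes. The difference was -1.16 ± 0.24 (adjusted p = 0.00735).

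The peptide receptors of the list fell too. Ednrb, the endothelin B receptor, which in mouse lung is strong in a capillary subtype that also carries Car4, read 6.90, 7.10, 6.15 and 7.09 on bleomycin arrays, against 8.84, 8.98, 7.95 and 7.94 on control arrays. Its groups were 0.84 apart, the widest gap of the 10, and the difference was -1.62 ± 0.28 (adjusted p = 0.00336). Calcrl pairs with RAMP proteins to form receptors for adrenomedullin and CGRP. It read 10.11, 10.06, 9.77 and 10.28 on bleomycin arrays, against 11.54, 11.53, 10.73 and 10.61 on control arrays, a difference of -1.05 ± 0.22 (adjusted p = 0.0084). Calcrl had an SD of 0.21 on bleomycin and 0.50 on control arrays.

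Lyve1, a hyaluronan receptor used as a marker of lymphatic endothelium, read 9.28, 8.88, 8.21 and 8.77 on bleomycin arrays, against 10.82, 11.20, 9.90 and 9.50 on control arrays. It was the most variable of the 10 among the controls (SD 0.79), and the difference was -1.57 ± 0.35 (adjusted p = 0.0119). Of 10 other lymphatic genes measured, none was called lower by limma after adjustment, 1 had an unadjusted p under 0.05 in that direction, and Pdpn, a mucin-like surface protein that fibroblasts carry as well, rose by 0.45 ± 0.11 (adjusted p = 0.0209). The list's median difference was 0.13, and 9.12% of all genes were called higher. Pdpn did not pass without control replicate 4 or without bleomycin replicate 1 or 3, and without control replicate 4 1 gene of the list was called lower and 0 higher. Prox1, the transcription factor that specifies lymphatic endothelium, and Flt4, its VEGF receptor, were named after their values were seen and differed by 0.21 (adjusted p = 0.384) and -0.25 (adjusted p = 0.316). Of 8 markers of perivascular macrophages, another source of Lyve1, none passed limma's adjusted test in either direction, and 1 was lower and 2 were higher at an unadjusted p under 0.05. The mannose receptor Mrc1 differed by 0.20 (adjusted p = 0.425), and F13a1 differed by -0.26 (adjusted p = 0.153). Several of these markers were dim: Cd163, Pf4 and Clec10a averaged 3.67, 3.86 and 3.95 on control arrays, and Prox1 averaged 4.41. Probe sets assigned to no gene had medians of 4.44 to 4.52 there. At such levels the lack of a call says little about the cells. The part of lymphatic cells and of perivascular macrophages in the Lyve1 level was not tested.

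The split among the controls had the same direction in each of the 10 genes. Replicates 1 and 2 averaged above replicates 3 and 4 by 0.86 (Calcrl) to 1.31 (Lyve1), with the nearest arrays of the 2 pairs 0.68 (Tie1) to 1.02 (Flt1) apart. Within a pair the controls differed by at most 0.38 for replicates 1 and 2 and 0.40 for replicates 3 and 4, both in Lyve1. Control replicate 2 was the highest array for 8 of the 10 genes. The bleomycin arrays showed no such order: replicates 1 and 2 were both above 3 and 4 for 1 of 10 genes, against 17% of all genes, and the median difference between these pairs was 0.05. Bleomycin replicate 3 was the lowest for 7 genes and replicate 4 the highest for 7. The labels call neither pair a batch, and the pairs were chosen with these data known, so they were compared without a test.

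Leaving out control replicates 1 and 2 made the falls smaller, with a median of -0.86 over the 10 genes. Of the 10, 7 still passed with these arrays left out (4.47% of all genes were then called lower). Cdh5, Flt1 and Lyve1 did not, at -0.50, -0.55 and -0.91 (adjusted p of 0.185, 0.134 and 0.0672). Tek, at -1.23, and Ednrb, at -1.14, kept the widest differences. Every bleomycin array also lay below control replicates 3 and 4 for 10 of 10 genes, an order found in 18.3% of all genes.

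With replicates 1 and 2 of both groups alone, all 10 genes passed, between -1.39 and -2.22, where 3.76% of all genes were called lower. With replicates 3 and 4 alone, the 10 differences lay between -0.58 and -1.32 and Tek alone of the 10 passed, at -1.16 (adjusted p = 0.0408), where 0.992% of all genes were called lower. Pecam1 differed there by -0.88 (adjusted p = 0.132) and Cdh5 by -0.67 (adjusted p = 0.208). Each of these fits holds 2 arrays per group, and the direction was the same in all 10 genes in both.

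**Figure D2:**
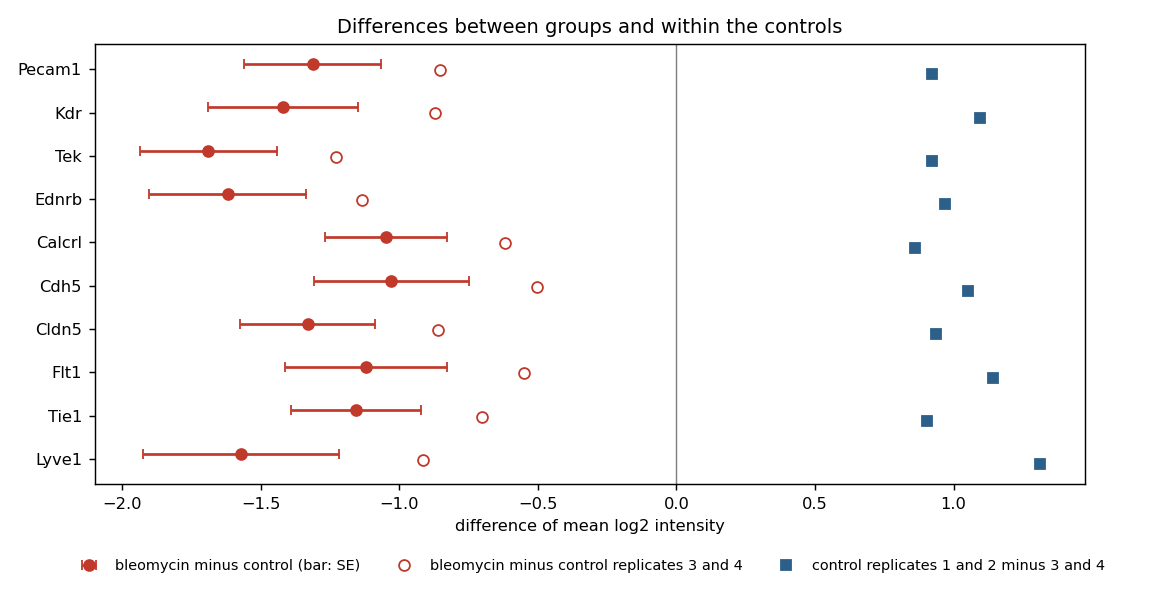
Differences of mean log2 intensity for each gene: bleomycin minus all 4 controls (filled circles, bars are the SE), bleomycin minus control replicates 3 and 4 (open circles) and control replicates 1 and 2 minus 3 and 4 (squares). All circles lie left of 0, from -1.69 to -0.50, and all squares lie right of it, from 0.86 to 1.31.

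The 10 genes differed between the groups by -1.03 (Cdh5) to -1.69 (Tek), with SEs of 0.22 to 0.35, and no test compared one gene's fall with another's. To set them against each other, each gene's level was expressed relative to the mean of the 10 on the same array, which removes what they share. That mean was 7.97, 7.95, 7.58 and 8.17 on bleomycin replicates 1 to 4, and 9.68, 9.82, 8.82 and 8.67 on control replicates 1 to 4. Relative to it, Pecam1 and Cldn5 were at the same place in both groups to within 0.02 on average. Cdh5 lay 1.55 to 1.88 above the mean on bleomycin arrays and 1.42 to 1.48 above it on control arrays, so it fell less than the others and these ranges did not meet. Calcrl was the other gene without overlap, at 2.11 to 2.19 above the mean on bleomycin and 1.70 to 1.94 on control arrays. Tek and Ednrb moved the other way on average, by -0.36 and -0.29, with overlapping ranges. For Tek the lowest point was bleomycin replicate 1, and for Ednrb it was bleomycin replicate 3. The relative levels of the 10 genes balance out on each array, so where some move up others must move down. These relative levels describe the arrays and were not tested.

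**Figure D3:**
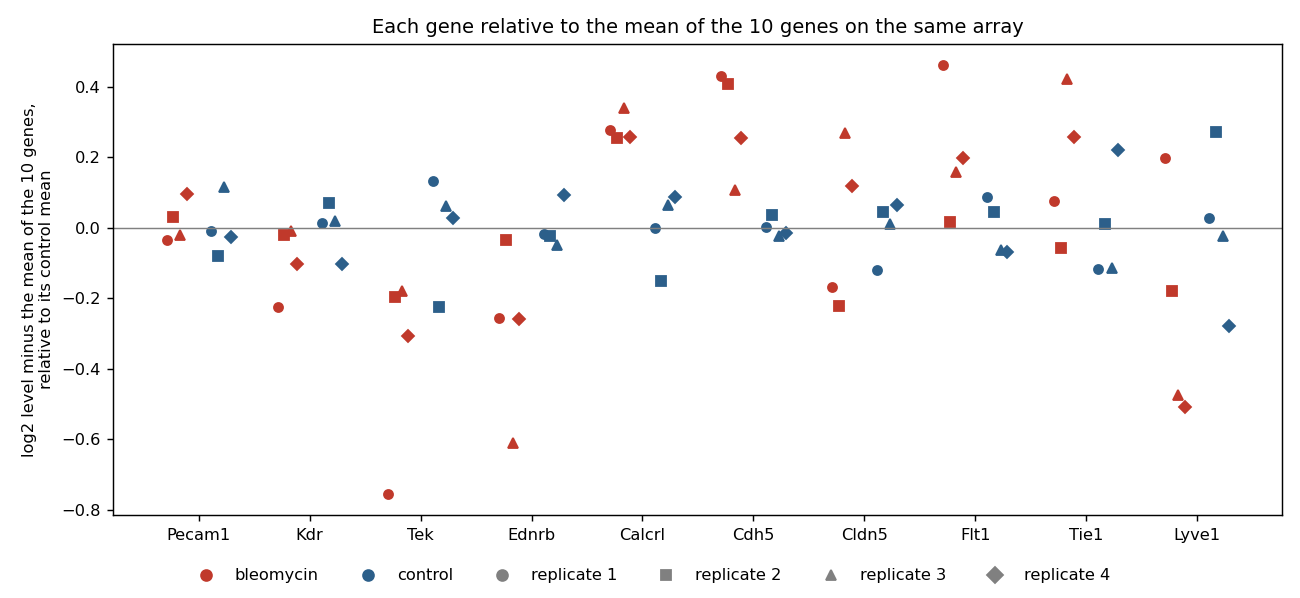
Each gene's log2 level minus the mean of the 10 genes on the same array, shifted so that its control mean is 0; bleomycin points stand left of control points, and shapes are replicates. Bleomycin points lie wholly above the control points for Calcrl and Cdh5, and the groups overlap for the other 8 genes.

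Beyond the 10, capillary and general endothelial genes were mostly called lower and vein, artery and lymphatic genes mostly not. Some genes of the latter lists were dim: Ackr1, Bmx, Prox1 and Stab2 averaged 4.40, 4.25, 4.41 and 4.12 on control arrays. Probe sets assigned to no gene had medians of 4.44 to 4.52 there, so a fall in such genes could hardly show. Whether these vessels were spared was not tested. Of 23 further genes of endothelium at large 14 fell and 1 rose, with a median difference of -0.92. The shares over all genes were 8.24% lower and 9.12% higher. Ptprb, a phosphatase that acts on Tie2 and VE-cadherin, fell by 1.73 ± 0.29 (adjusted p = 0.00292), the adhesion GPCR Adgrl4 fell by 1.62 ± 0.27 (adjusted p = 0.00273) and the C-type lectin Clec14a differed by -1.56 ± 0.24 (adjusted p = 0.00158). Ecscr, an endothelial surface protein, rose by 0.76 ± 0.16 (adjusted p = 0.00922). In the controls, replicates 1 and 2 were both above 3 and 4 for all 23 of these genes, Ecscr included. Without control replicates 1 and 2, 7 fell and 1 rose. With replicates 1 and 2 of both groups alone 20 fell, and with replicates 3 and 4 alone 1 fell and 1 rose.

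Of 13 lung capillary genes 10 fell and none rose (none at an unadjusted p under 0.05 either), with a median of -1.05, and 9 fell without control replicates 1 and 2. The fit of replicates 1 and 2 of both groups alone called 10 lower, and that of replicates 3 and 4 alone called none. Tmem100, a BMP-responsive membrane protein, fell by 1.87 ± 0.24 (adjusted p = 0.000578), the prostaglandin dehydrogenase Hpgd by 1.81 ± 0.29 (adjusted p = 0.00211) and the fatty acid transporter Cd36 by 1.51 ± 0.28 (adjusted p = 0.00496). Tmem100 differed by only 0.49 between control replicates 1 and 2 and replicates 3 and 4, less than any of the 10 genes.

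Of 20 transcription factors of endothelium 9 fell and 1 rose, with a median of -0.38, and 5 fell without control replicates 1 and 2. Replicates 1 and 2 of both groups alone gave 11 falls, and replicates 3 and 4 alone gave 1. Gata2, a factor of endothelial and blood cells, fell by 1.41 ± 0.26 (adjusted p = 0.00479). Klf4 and Klf2, which respond to flow in endothelium and are early response genes in many cells, fell by 1.10 ± 0.14 (adjusted p = 0.000487) and 1.09 ± 0.17 (adjusted p = 0.00184). The controls were even in both, with 0.03 and 0.04 between the 2 pairs. Mef2c, a muscle and endothelial factor, rose by 0.61 ± 0.10 (adjusted p = 0.00223). The ETS factors Erg and Fli1, named because their motif is shown, did not pass, at -0.30 (adjusted p = 0.549) and -0.38 (adjusted p = 0.13).

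Of 16 artery and vein genes 3 rose and 2 fell, with a median of -0.05, where 9.12% of all genes were called higher and 8.24% lower. The netrin receptor Unc5b rose by 1.36 ± 0.19 (adjusted p = 0.000888), the matrix protein Fbln2 by 0.97 ± 0.18 (adjusted p = 0.00429) and the chemokine Cxcl12 by 0.57 ± 0.10 (adjusted p = 0.00405). Fibroblasts are known to make the last 2. The Notch ligand Dll4 fell by 0.94 ± 0.29 (adjusted p = 0.0474) and the arterial connexin Gja5 by 0.48 ± 0.10 (adjusted p = 0.00874). Without control replicates 1 and 2, 1 of these genes fell and 4 rose. Leaving out any single array other than control replicates 3 and 4 left 1 fall, and leaving out control replicate 4 gave 4.

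**Figure D4:**
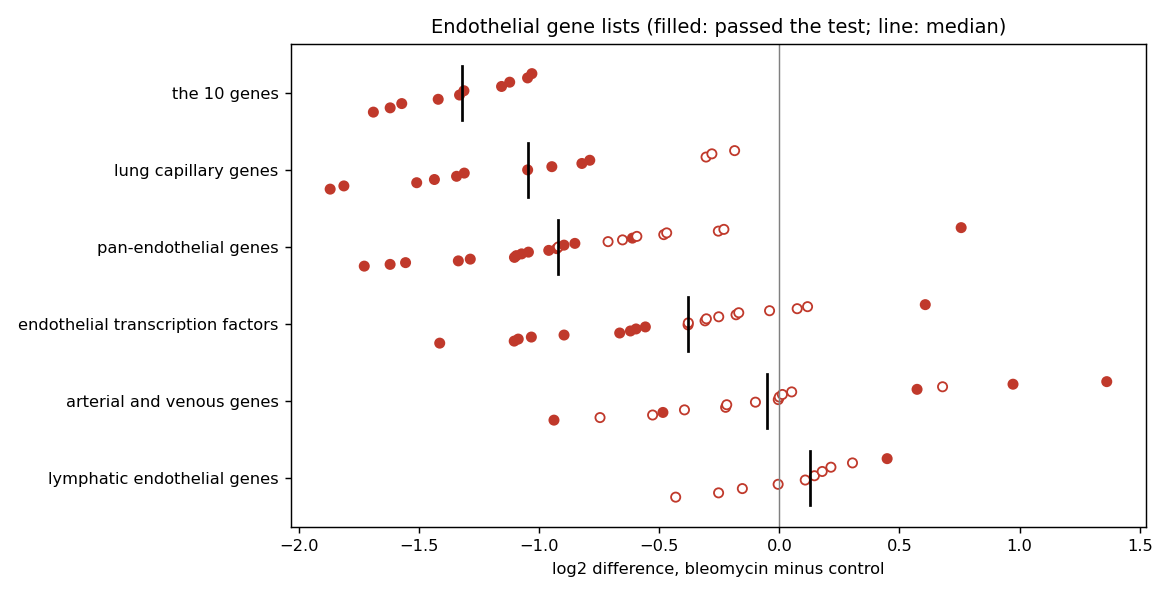
Log2 difference of each gene, bleomycin minus control, for the 10 genes and 5 further lists; filled points passed the test and black lines are medians. The medians run from -1.32 for the 10 genes and -1.05 for capillary genes to 0.13 for lymphatic genes.

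The ligands and partners of the 10 receptors and adhesion proteins moved in both directions. Of 22 measured, 6 fell and 3 rose, with a median of -0.15, where 8.24% of all genes were called lower and 9.12% higher. Vegfa, the ligand of Kdr and Flt1, averaged 9.54 on bleomycin and 10.54 on control arrays, a difference of -1.002 ± 0.16 (adjusted p = 0.00235), and its control replicates 1 and 2 were on average 0.39 below replicates 3 and 4. Edn3, a ligand of Ednrb, fell by 0.86 ± 0.16 (adjusted p = 0.0049) and the endothelin-converting enzyme Ece1 by 0.83 ± 0.21 (adjusted p = 0.0236). Has2, which makes the hyaluronan that Lyve1 binds, rose by 2.53 ± 0.22 (adjusted p = 5.83e-05), and Vegfc, a ligand of Flt4, by 1.05 ± 0.18 (adjusted p = 0.00323). The remaining 4 calls, named after their values were seen, were a rise of Pgf, a ligand of Flt1, by 0.71 ± 0.18 (adjusted p = 0.0193), and falls of Angpt1 by 0.61 (adjusted p = 0.00924), Angpt2 by 0.61 (adjusted p = 0.0238) and the Calcrl partner Ramp2 by 0.71 (adjusted p = 0.0118).

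Of 16 junction partners 7 fell and 1 rose, with a median of -0.25, where 8.24% of all genes were called lower and 9.12% higher. The claudin Cldn18 and occludin, Ocln, both abundant in epithelium, fell by 1.39 ± 0.26 (adjusted p = 0.00476) and 1.25 ± 0.23 (adjusted p = 0.00441). Plakoglobin, Jup, which binds cadherins, fell by 0.66 ± 0.08 (adjusted p = 0.000405), and the adhesion molecule Jam3 rose by 0.51 ± 0.12 (adjusted p = 0.0164).

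The 10 genes whose profiles over the 8 arrays lay nearest to the mean profile of the 10 endothelial genes were found by the root mean square difference, after each gene's own mean was subtracted. That measure ran from 0.08 for Cd93, an endothelial lectin, to 0.13 for the integrin Itga6, in log2 units. Of these nearest genes 6 were on the endothelial lists, namely Cd93, Gata2, Cyyr1, Cd36, Car4 and Kit. Those lists hold 82 of the 22180 genes and were written with earlier results of these data known. The other 4 were Afap1l1, Dpp4, S100g and Itga6. Among the 10 endothelial genes themselves, which make up that mean profile, it was 0.06 for Pecam1 and largest for Lyve1, at 0.27. Tek and Lyve1 ranked 82 and 91 among all genes, so many other genes lay nearer than these 2.

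Markers of other cells that the gate removes or keeps were set beside these results. Of 19 markers of alveolar and airway epithelium 14 fell and none rose (none at an unadjusted p under 0.05 either), with a median of -1.39. The share called lower over all genes was 8.24%. The mean level of that list was 6.51 to 7.25 on bleomycin and 7.95 to 8.73 on control arrays, and control replicates 1 and 2 stood at 8.73 and 8.61 against 8.02 and 7.95 for replicates 3 and 4. Its mean therefore split the controls in the same direction as the endothelial genes, with a median of 0.60. Replicates 1 and 2 were both above 3 and 4 for 16 of the 19 markers. Krt19, Scgb1a1 and Cyp2f2, named after their values were seen, did not hold this order. Of these, Scgb1a1 differed by -2.32 and Cyp2f2 by -2.45 between the groups (limma adjusted p of 0.00207 and 0.000387). Sftpa1, a surfactant protein, fell by 2.69 ± 0.36 (adjusted p = 0.00068).

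Among leukocyte markers more rose than fell, and the platelet markers that passed were lower. Among all genes 9.12% were called higher and 8.24% lower. Of 16 leukocyte markers 6 rose and 1 fell, with a median of 0.15 and a list mean of 5.70 to 5.91 on bleomycin and 5.58 to 5.84 on control arrays. The lysosomal protein Cd68 rose by 0.70 ± 0.13 (adjusted p = 0.00493), and the B cell receptor component Cd79a fell by 0.84 ± 0.14 (adjusted p = 0.00246). The other rises, named after their values were seen, were those of Adgre1, Itgam, Itgax, Tyrobp and Fcer1g. At an unadjusted p under 0.05, 7 leukocyte markers were higher and 4 lower. Median centring called 4 of them higher and 3 lower. Of 7 platelet markers, which could carry Pecam1, 2 fell and none rose, with a median of -0.13, and the platelet chemokine Ppbp fell by 0.98 ± 0.20 (adjusted p = 0.00789). These counts changed when single arrays were left out: 2 or 3 leukocyte markers rose without control replicate 1, 3 or 4 or bleomycin replicate 1, 3 or 4, and 1 platelet marker fell without any 1 array other than control replicate 1 and bleomycin replicate 2. The platelet list mean was 4.86 to 5.005 on bleomycin and 5.09 to 5.15 on control arrays, and the controls were even in it. Probe sets assigned to no gene were also lower on bleomycin arrays, with medians of 4.20 to 4.35 against 4.44 to 4.52 on control arrays. The part of that shift in the platelet levels was not tested.

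Of the lists for cells that the gate keeps, that of smooth muscle had the most genes called higher. The shares over all genes were 9.12% higher and 8.24% lower. Of 13 pericyte markers 3 rose and 4 fell, with a median of 0.02. The proteoglycan Cspg4 rose by 1.37 ± 0.20 (adjusted p = 0.00115), and the laminin Lamc3 fell by 0.90 ± 0.18 (adjusted p = 0.00618). Of 9 smooth muscle markers 7 rose, led by the actin Actg2 at 2.55 ± 0.31 (adjusted p = 0.000437). Myh11 and Synpo2, named after their values were seen, did not pass, at 0.25 and 0.08 (limma adjusted p of 0.221 and 0.663). Whether the rises came from smooth muscle cells was not tested. Of 14 fibroblast markers 6 rose and 5 fell, with 3 falls without any 1 of the control arrays or without bleomycin replicate 1 or 3. Of 8 mesothelial markers the uroplakin Upk1b fell, by 0.96 ± 0.16 (adjusted p = 0.00234), while the others did not pass. The part of these lists in the levels of the 10 genes was not tested.

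**Figure D5:**
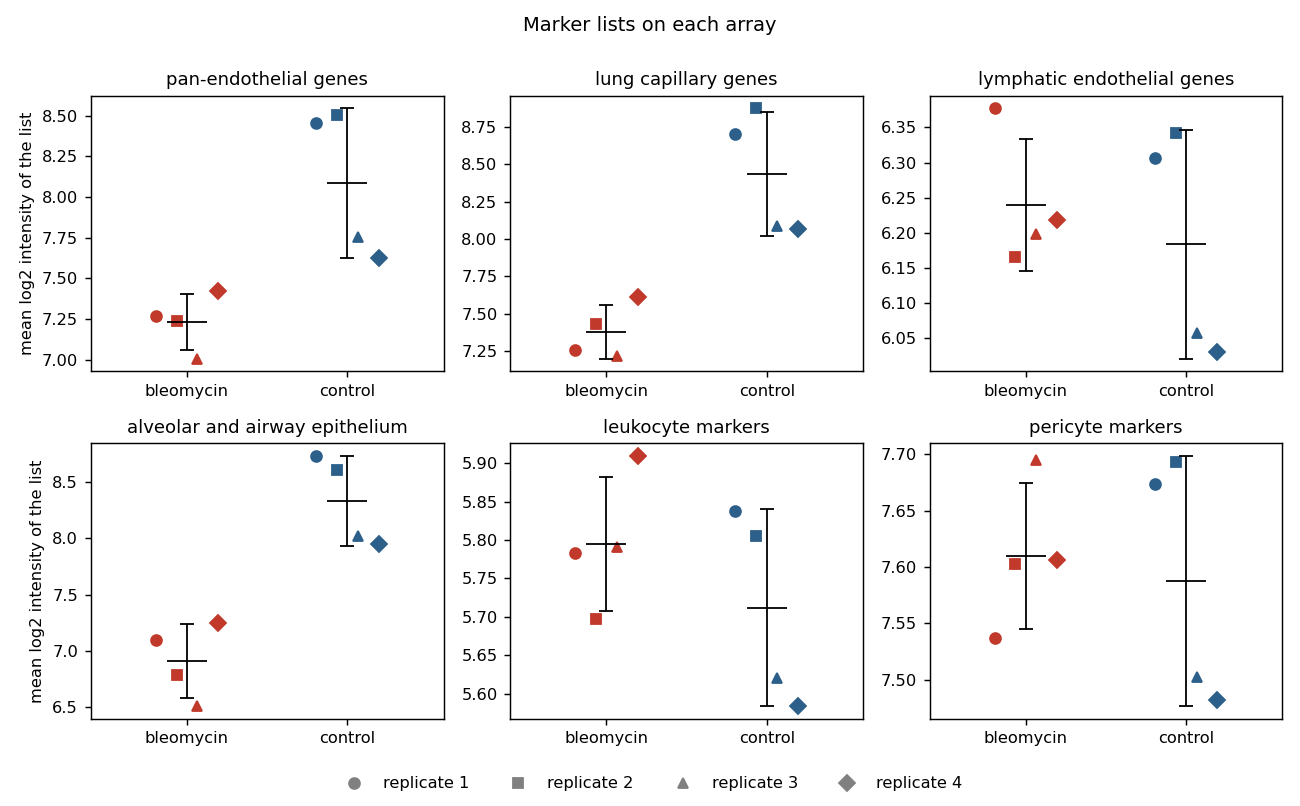
Mean log2 intensity of 6 marker lists on every array, bleomycin left and control right; shapes are replicates 1 to 4 and black bars are the mean and SD (n = 4). The vertical scale differs between panels. Endothelial, capillary and epithelial lists are lower on all bleomycin arrays, and the groups overlap for lymphatic, leukocyte and pericyte lists.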

How the data were processed

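The authors deposited 1 value per probe set and array, taken here as log2 intensity because values run from 0.24 to 13.58; the table names no scale, and how background was corrected and arrays were normalized is not given in the sources used here. Per the labels' protocols, biotinylated cRNA was made from 100 ng of total RNA. Arrays have no read depth, and their number limits the precision. Of 41345 rows, 23521 had 1 gene, 1814 several and 16010 none; each of 22180 genes was represented by its brightest row, and the 10 endothelial genes had 1 row each. Groups and replicate numbers came from sample titles. Values were used as deposited. Bleomycin and control were compared by limma 3.58.1 in R 4.3.3 (a linear model with moderated variances, two-sided). P-values were adjusted over all genes by Benjamini and Hochberg's method, with a threshold of 0.05. The fit was tested on simulated data. The members and the 15 gene lists were chosen with earlier results of these data known, as were the pairs of control replicates. The lists hold 214 measured entries, matched by symbol or by Entrez identifier through RefSeq, GRCm38.p6. Cldn18 is counted in both the junction and the epithelial list. Genes named are the 10 members, Ptprc and Epcam, up to 3 called genes per list in the direction with more calls and up to 2 in the other (the 2 brightest where none was called), and the 10 nearest profiles; not all eligible genes are named, and those outside the rule are marked, save Pdgfra, Col1a1 and Flt4 as context. Alternatives were the replicate number or the pairs as a block, quantile normalization, median centring, filters on dim genes, the mean of probe sets, trended robust eBayes, array weights, a threshold of 0.01, and fits without single arrays or pairs. Figures were drawn with matplotlib 3.10.9.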

Additional observations from a re-analysis of the deposited data

Results flagged for a closer look

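In the bleomycin samples Cdh5 read 9.13 on replicate 3, apart from the other 3 arrays, the nearest of which read 9.80. The gap made up 0.911 of the group's range, above the limit that chance passes in about 1 of 20 groups of 4. This was the 1 such array among the 20 sets of 4 examined, 10 genes in 2 groups. Without this array Cdh5 differed by -0.85 between bleomycin and control and did not pass (limma, adjusted p = 0.0786).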

How the results depend on the processing

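All 10 genes kept their direction under all 21 alternatives, and 186 of 210 calls held; the other 24 fell short of the threshold, 8 of them for Cdh5 and 7 for Flt1. With the replicate number as a block, all 10 passed, as 1937 higher and 1838 lower genes did among all genes; same-numbered samples deviated together only weakly (correlations across genes between 0.06 and 0.13), and bleomycin replicates 2 and 4 were nearest to control replicates 1 and 3, so the samples share a number and no pairing was assumed. These correlations were positive for all 8 pairs of a bleomycin and a control array within replicates 1 and 2 or within 3 and 4 (0.06 to 0.13) and negative for all 8 pairs across them (-0.14 to -0.07). Deviations within a group balance out over its arrays, so positive values within the pairs force negative ones across them. The signs are not independent and were not tested. The number of the 10 genes called lower was 1 with replicates 3 and 4 alone, and 8 to 10 with any 1 array left out. Their median difference was -1.83 with replicates 1 and 2 alone, -0.79 with replicates 3 and 4 alone and -0.86 without control replicates 1 and 2, and lay between -1.51 and -1.14 with any 1 array left out. These fits hold fewer arrays. Among all genes, 2022 were higher and 1828 lower as reported. The counts were 838 and 833 with replicates 1 and 2 alone, 503 and 220 with replicates 3 and 4 alone, 1205 and 992 without control replicates 1 and 2, and 1079 and 879 at a threshold of 0.01. With any 1 array left out they lay between 1497 and 1987 higher and 1306 and 1883 lower. Quantile normalization and median centring gave medians of -1.31 and -1.37 for the 10 genes and differences of 0.96 and 0.94 between the pairs of controls. The balance of all calls turned to 1623 higher and 2314 lower with median centring, 1914 and 2021 with quantile normalization, and 2040 and 2087 without the dimmest 50% of genes.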

Other observations

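Some endothelial genes that were uneven among the controls did not follow the 10 genes in the bleomycin samples. They were chosen after their values were seen. The prostaglandin transporter Slco2a1 averaged 11.12 on bleomycin and 10.44 on control arrays and did not pass (0.68, limma adjusted p = 0.123), although control replicates 1 and 2 averaged 0.96 above replicates 3 and 4. Erg showed 1.27 between the pairs of controls and -0.30 between the groups, and the diaphragm protein Plvap 0.89 and -0.48 (adjusted p = 0.19). The lymphatic gene Mmrn1 showed 0.83 between the pairs of controls and 0.18 between the groups (adjusted p = 0.675). No explanation was tested for these values.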
